A study of Mus musculus with 2 samples.

Results

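The 10 genes described here encode transcription factors that are grouped here under the resting, naive state of T cells: the HMG-box factors Tcf7 and Lef1, the bZIP repressor Bach2, the chromatin organiser Satb1, the forkhead factors Foxo1 and Foxo3, and the Krüppel-like factors Klf2, Klf3, Klf6 and Klf13. Of these, Klf6 is also an early-response factor that activation induces. All 10 were taken by gene name, and each was found on a single row among the 34745 gene rows of the count tables. The cells were regulatory T (Treg) cells of 2-week-old C57BL/6 mice, sorted from the spleen as CD4+ cells carrying the YFP reporter of Foxp3Cre. Both genotypes carried Foxp3Cre. The knockout library came from poh1fl/fl Foxp3Cre+ mice, in which the Cre that deletes poh1 is expressed where Foxp3 is, and the wild-type library came from poh1+/+ Foxp3Cre+ mice. There was 1 library per genotype, and the sources used here do not say whether mice were pooled. No difference therefore has a replicate check and no p-value is given. Ranges in parentheses are 95% intervals for counting error alone and hold none of the spread between mice.

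Naive and resting lymphocytes are kept out of the cell cycle and in circulation between lymphoid organs by a set of transcription factors. FOXO proteins are held in the cytoplasm by AKT downstream of phosphoinositide 3-kinase (PI3K) and, when nuclear, drive Klf2 and the homing and survival receptors of naive T cells. KLF2 sustains quiescence and the exit receptor S1PR1, while TCF1, the product of Tcf7, and LEF1 bind DNA with beta-catenin or Groucho/TLE co-repressors. BACH2 competes with AP-1 factors and restrains effector genes, and in Treg cells it favours the resting over the effector state. SATB1 organises chromatin during T cell and Treg development.

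The total counts were 14544212 in the knockout library and 18124611 in the wild-type library. Psmd14, the mouse gene for the proteasome-lid deubiquitinase POH1, was at 31.8 CPM (counts per 1000000 counts of the library) in the knockout library and 89.4 CPM in the wild-type library, in the direction of the labels. Foxp3, the defining factor of Treg cells, was at 1073 CPM in the knockout and 671.1 CPM in the wild-type library, and Il2ra, the interleukin-2 receptor gene, at 1530 CPM in the knockout and 989.8 CPM in the wild-type library. Exons of Foxp3 overlap those of other genes over 31.5% of their length. The 7 T cell and Treg markers summed to 4593 CPM in the knockout and 4011 CPM in the wild-type library, with a ratio above 1 in 3 and below 1 in 4 and a median log2 ratio of -0.05. By the rule given next, Foxp3 and Il2ra were called higher, and Ikzf2, the gene of the Treg factor HELIOS, named after its values were seen, was called lower, at 525.8 CPM in the knockout and 825.3 CPM in the wild-type library. A gene was called higher or lower where the counting interval of its ratio, knockout over wild type, lay wholly beyond 1.5-fold. Of the 13464 measured genes, those that reached 1 CPM in either library, 9.58% were called higher and 12.3% lower. Among the 5047 genes that reached 50 CPM in either library, a range that holds all 10 factors, 9.63% were called higher and 9.65% lower. The counts of genes called in every list below are to be read beside these shares.

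All 10 factors were well measured, with 2248 to 14129 counts in the knockout library and 1272 to 12150 in the wild-type library. Bach2, Satb1, Lef1 and Klf3 were called higher in the knockout library and Klf6 was called lower, so 4 of 10 were called higher and 1 of 10 lower. The ratio was above 1 in 8 of the 10, all except Foxo1 and Klf6, against 49.6% of all measured genes and 51.4% of those at 50 CPM or more. The median log2 ratio of the 10 was 0.50, beside -0.01 over all measured genes, whose quartiles were -0.44 and 0.39. The 10 genes were chosen with results of these libraries known, so these counts describe the set and do not test it. In bulk RNA, more cells of a kind and more transcript per cell cannot be told apart.

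**Figure D1:**
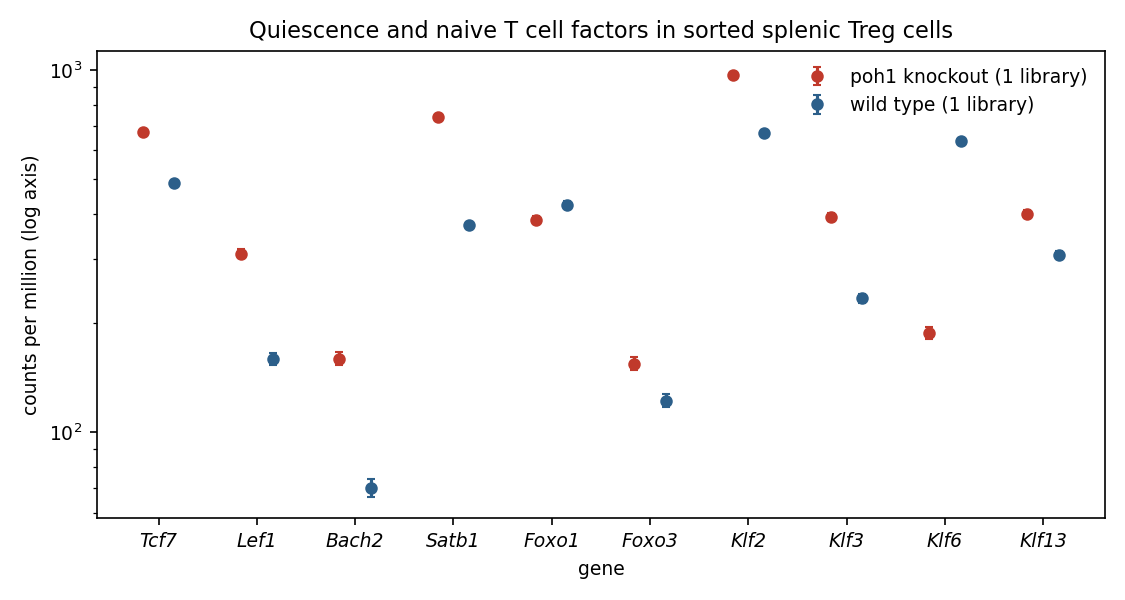
Level of each of the 10 factors in CPM (log axis), in the knockout library (red, left) and the wild-type library (blue, right). Bars are exact 95% Poisson counting intervals of each library, often smaller than the point. Bach2, Lef1, Satb1 and Klf3 show the widest gaps upward in the knockout library, and Klf6 is the factor that lies far below its wild-type level.

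Bach2 (chromosome 4, 32238804 to 32586108, plus strand, mm10) had the highest ratio of the 10. It was at 159.5 CPM (153.0 to 166.1) in the knockout library and at 70.2 CPM (66.4 to 74.2) in the wild-type library, a 2.27-fold higher level (2.12 to 2.43). Of all measured genes, 93.1% had a lower ratio, and of those at 50 CPM or more, 96.8% did. The related repressor Bach1, which shares the DNA motif and represses haem oxygenase, was at 47.4 CPM in the knockout and 34.6 CPM in the wild-type library, 1.37-fold higher (1.23 to 1.53) and not called. Among 6 genes of BACH partners and shared-motif factors, 1 was called higher and 1 lower. Nfe2l2, which encodes the activator NRF2 that binds the same elements, was 1.99-fold higher (1.79 to 2.21), and Hmox1, the haem oxygenase gene that BACH1 represses, was 1.69-fold lower (1.56 to 1.84). The small MAF genes that pair with these factors were not called, with Mafk at 90.6 CPM in the knockout and 103.6 CPM in the wild-type library.

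Lef1 (chromosome 3, 131110471 to 131224356, plus strand) was at 311.4 CPM (302.4 to 320.6) in the knockout library and at 159.3 CPM (153.5 to 165.2) in the wild-type library. That is a 1.95-fold higher level (1.87 to 2.05). Tcf7 (chromosome 11, 52252371 to 52283014, minus strand) was at 675.7 CPM (662.4 to 689.2) in the knockout library and at 486.6 CPM (476.5 to 496.9) in the wild-type library. Its 1.39-fold higher level (1.35 to 1.43) stayed under the threshold. The balance of the pair differed between the libraries. There were 0.461 Lef1 counts per Tcf7 count in the knockout library and 0.327 in the wild-type library, 1.41-fold more (1.33 to 1.49, from a normal approximation on the log scale), and this ratio does not depend on how the libraries are scaled. Per kilobase of merged exons, Tcf7 was the second most abundant of the 10 in both libraries, at 257.4 CPM per kb in the knockout and 185.4 CPM per kb in the wild-type library. Lef1 was at 35.4 CPM per kb in the knockout and 18.1 CPM per kb in the wild-type library.

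The relatives of this pair stood further apart. Tcf7l1, which encodes TCF3 of the TCF/LEF family, mainly a repressor, had 669 counts in the knockout library and 101 in the wild-type library. It was at 46.0 CPM in the knockout and 5.57 CPM in the wild-type library, 8.25-fold higher (6.68 to 10.3), the highest ratio of all measured genes of these families. Tcf7l2 had 145 counts in the knockout library and 68 in the wild-type library, 2.66-fold higher (1.98 to 3.60). Thus all 4 genes of the TCF/LEF family had ratios above 1.

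Of 17 measured genes of proteins that work with TCF1 and LEF1, 1 was called higher and 3 lower, with a median log2 ratio of -0.15. Among all measured genes the shares called were 9.58% higher and 12.3% lower, so these counts lie near the background. Axin2, a feedback inhibitor in Wnt signalling and a classical target of beta-catenin with TCF/LEF factors, was at 9.21 CPM in the knockout library and 46.1 CPM in the wild-type library, 5.01-fold lower (4.17 to 6.06). Tle1, a Groucho co-repressor gene, was 2.06-fold lower (1.58 to 2.71), and Bcl9l, a co-activator gene of beta-catenin, was 1.62-fold lower (1.52 to 1.72). Tle2, at 4.06 CPM in the knockout and 1.21 CPM in the wild-type library, was 3.34-fold higher (2.02 to 5.72). Among 7 measured genes linked to TCF1 or LEF1 in T cells, 0 were called higher and 2 lower. These were Axin2 again and Bcl6, the repressor of follicular T cells, at 11.4 CPM in the knockout and 28.9 CPM in the wild-type library, 2.53-fold lower (2.12 to 3.03). Cxcr5, a follicle-homing receptor gene in this list, was at 18.8 CPM in the knockout and 13.6 CPM in the wild-type library, with an interval of 1.15 to 1.64 around a ratio of 1.38.

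Satb1 (chromosome 17, 51736187 to 51833290, minus strand) was at 739.3 CPM (725.4 to 753.4) in the knockout library and at 372.4 CPM (363.5 to 381.4) in the wild-type library. It was 1.99-fold higher (1.93 to 2.05). By count it ranked 125 among measured genes in the knockout library and 439 in the wild-type library, the second most counted of the 10 in the knockout library after Klf2.

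The FOXO pair moved little. Foxo1 (chromosome 3, 52268336 to 52353221, plus strand), the main FOXO factor of T cells, was at 386.0 CPM (376.0 to 396.3) in the knockout library and at 424.7 CPM (415.3 to 434.3) in the wild-type library. Its ratio of 0.909 (0.878 to 0.941) lay within the quartiles of all measured genes. Foxo3 (chromosome 10, 42181841 to 42276755, minus strand) was at 154.5 CPM (148.2 to 161.0) in the knockout library and at 122.2 CPM (117.2 to 127.4) in the wild-type library, a ratio of 1.26 (1.19 to 1.34). Neither was called. Within a library, Foxo3 counts per Foxo1 count were 0.40 in the knockout and 0.288 in the wild-type library, 1.39-fold apart (1.30 to 1.49). Foxo4 was at 62.4 CPM in the knockout and 52.9 CPM in the wild-type library, with a ratio of 1.18 (1.08 to 1.29), and Foxo6 had 0 counts in both libraries.

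Transcript levels of FOXO genes do not report FOXO activity, which AKT sets on the protein. Of 28 genes of the PI3K and AKT pathway and its 14-3-3 proteins, 2 were called higher and 3 lower, with a median log2 ratio of -0.19. These counts lie near the shares over all measured genes, 9.58% higher and 12.3% lower. Pik3ip1, an inhibitor of PI3K and itself a FOXO target, was at 118.4 CPM in the knockout and 41.5 CPM in the wild-type library, 2.85-fold higher (2.62 to 3.11). Rictor, the scaffold of the mTOR complex that phosphorylates AKT, was 1.69-fold higher (1.61 to 1.77). The 3 lower genes all encode 14-3-3 proteins, which bind phosphorylated FOXO: Ywhah was 2.96-fold (2.78 to 3.15), Ywhaq 2.20-fold (2.01 to 2.41) and Ywhae 1.57-fold lower (1.5 to 1.64).

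Known FOXO target genes were divided, with 5 of 22 called higher, 4 lower and a median log2 ratio of 0.13. Over all measured genes, 9.58% were called higher and 12.3% lower. Txnip, which limits glucose uptake, was at 1089 CPM in the knockout and 303.6 CPM in the wild-type library, 3.59-fold higher (3.48 to 3.70). Pik3ip1 and the lymphoid-homing receptor gene Ccr7, at 704.5 CPM in the knockout and 276.4 CPM in the wild-type library, followed it. Gadd45b, a stress-response gene, was 3.01-fold lower (2.71 to 3.35), Bcl6 was the next lowest, and Cited2, a transcriptional co-regulator gene, was 1.86-fold lower (1.74 to 1.99). Exons of Txnip overlap those of an antisense gene over 19.4% of their length, and a kit without strand cannot separate the reads.

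The Krüppel-like factors split. Klf2 (chromosome 8, 72319033 to 72321656, plus strand) was at 971.2 CPM (955.2 to 987.3) in the knockout library and at 670.5 CPM (658.7 to 682.6) in the wild-type library. Its 1.45-fold higher level (1.41 to 1.48) fell just under the 1.5-fold rule. Klf3 (chromosome 5, 64803388 to 64832901, plus strand), a repressor that works with the CtBP proteins, was at 393.6 CPM (383.5 to 403.9) in the knockout library and at 234.0 CPM (227.0 to 241.2) in the wild-type library. It was 1.68-fold higher (1.62 to 1.75), the called factor closest to the threshold. Klf13 (chromosome 7, 63886351 to 63938915, minus strand) was at 400.4 CPM (390.2 to 410.8) in the knockout library and at 308.6 CPM (300.6 to 316.8) in the wild-type library, 1.30-fold higher and not called, with a log2 ratio of 0.38.

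Klf6 (chromosome 13, 5861482 to 5870394, plus strand), an early-response factor induced by activation and stress, was the exception. It had 2730 counts in the knockout library and 11548 in the wild-type library. In CPM it was at 187.7 (180.7 to 194.8) in the knockout library and at 637.3 (625.7 to 649.0) in the wild-type library, 3.40-fold lower (3.26 to 3.54). Of measured genes at 50 CPM or more, 1.66% had a lower ratio. Set against its own family within each library, there were 0.193 Klf6 counts per Klf2 count in the knockout library and 0.95 in the wild-type library, a ratio 4.92-fold lower in the knockout library (4.69 to 5.16). Against Klf13 and Klf3, the same comparison gave 4.41-fold (4.17 to 4.66) and 5.71-fold lower (5.39 to 6.05). By contrast, Klf13 counts per Klf2 count were 0.412 in the knockout and 0.460 in the wild-type library, 0.896-fold (0.857 to 0.936).

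Of the 9 measured KLF genes outside the 10 factors, 5 were called lower and 0 higher. Klf4, a factor that holds back proliferation in T cells and shapes myeloid cells, was at 16.2 CPM in the knockout library and 71.9 CPM in the wild-type library, 4.43-fold lower (3.86 to 5.11). Klf10, which TGF-beta induces, was at 31.1 CPM in the knockout and 67.2 CPM in the wild-type library, 2.16-fold lower (1.94 to 2.41). Klf11 and Klf16 had ratios of 0.704 (0.628 to 0.788) and 0.720 (0.648 to 0.799), not called, and Klf7 one of 1.31 (1.19 to 1.45). Exons of Klf7 overlap those of other genes over 39.4% of their length. The scarce family genes Klf1, Klf8 and Klf12 were also called lower. Klf1, the erythroid factor, had 12 counts in the knockout library and 70 in the wild-type library, and Klf8 had 12 in the knockout and 63 in the wild-type library. Klf12 had 2 counts in the knockout and 58 in the wild-type library, and its ratio was 23.3-fold lower (6.16 to 197). Klf9 was at 5.77 CPM in the knockout and 7.01 CPM in the wild-type library, with an interval that spanned no difference. Of the 13 measured relatives of the 10 factors, 2 were called higher and 5 lower. The relatives Foxo6, Klf5, Klf14, Klf15 and Klf17 were under 1 CPM in both libraries.

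**Figure D2:**
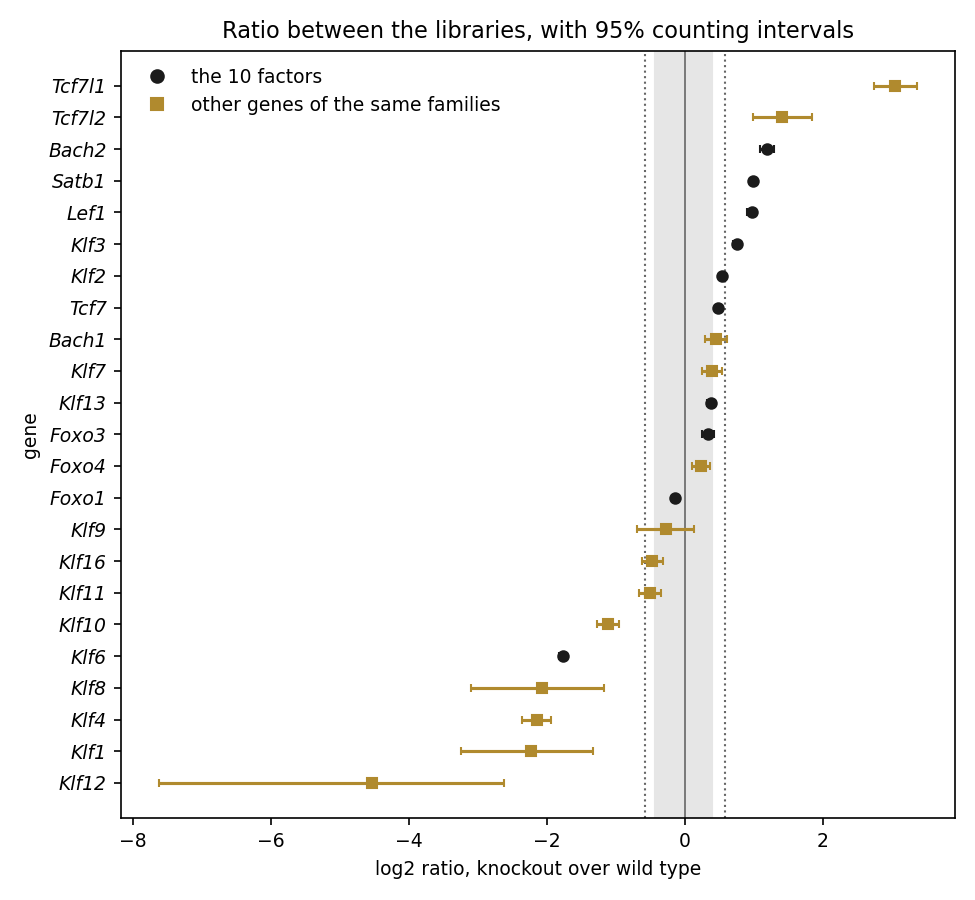
Log2 ratio of knockout over wild type for the 10 factors (black circles) and the 13 measured genes of the same families (gold squares), with exact 95% counting intervals. The grey band spans the quartiles of all measured genes and the dotted lines mark 1.5-fold. Tcf7l1 lies farthest to the right at an 8.25-fold higher level, while Klf6 and 5 other Klf genes lie to the left of the lower line.

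Levels of different genes are comparable only per length. Here CPM were divided by the length of the merged exons in the GENCODE M21 annotation. For some genes that length far exceeds any single transcript. It was 19027 bases against 6243 in the longest transcript for Satb1, 11243 against 5221 for Klf3 and 8788 against 3656 for Lef1. The orders and shares below therefore hold for this length only, and another choice of length could change them. Klf2 was the most abundant of the 10 factors in both libraries, at 525.8 CPM per kb in the knockout and 363.0 CPM per kb in the wild-type library. It made up 49.2% of the summed length-scaled level of the 10 in the knockout library and 42.0% in the wild-type library. In the knockout library Klf6 was the fifth of the 10 at 42.7 CPM per kb, below Klf13 at 53.2 and Foxo1 at 44.6 CPM per kb. In the wild-type library it was the third at 145.1 CPM per kb, after Klf2 and Tcf7. Below Klf6 in the knockout library came Satb1 at 38.9, Lef1 at 35.4 and Klf3 at 35.0 CPM per kb, where Lef1 and Klf3 differed by less than their counting intervals. In the wild-type library Klf3 at 20.8, Satb1 at 19.6 and Lef1 at 18.1 CPM per kb stood in another order. Foxo3 and then Bach2 were lowest of the 10 in both libraries, with Bach2 at 16 CPM per kb in the knockout and 7.06 CPM per kb in the wild-type library.

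Within the KLF family as a whole, the summed length-scaled level of the 13 measured genes was 701.1 CPM per kb in the knockout library and 651.7 CPM per kb in the wild-type library. The makeup of that sum differed more than its size. Klf2 supplied 75% of it in the knockout library and 55.7% in the wild-type library, whereas Klf6 supplied 6.10% in the knockout library and 22.3% in the wild-type library. Klf4 supplied 0.759% in the knockout and 3.62% in the wild-type library.

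**Figure D3:**
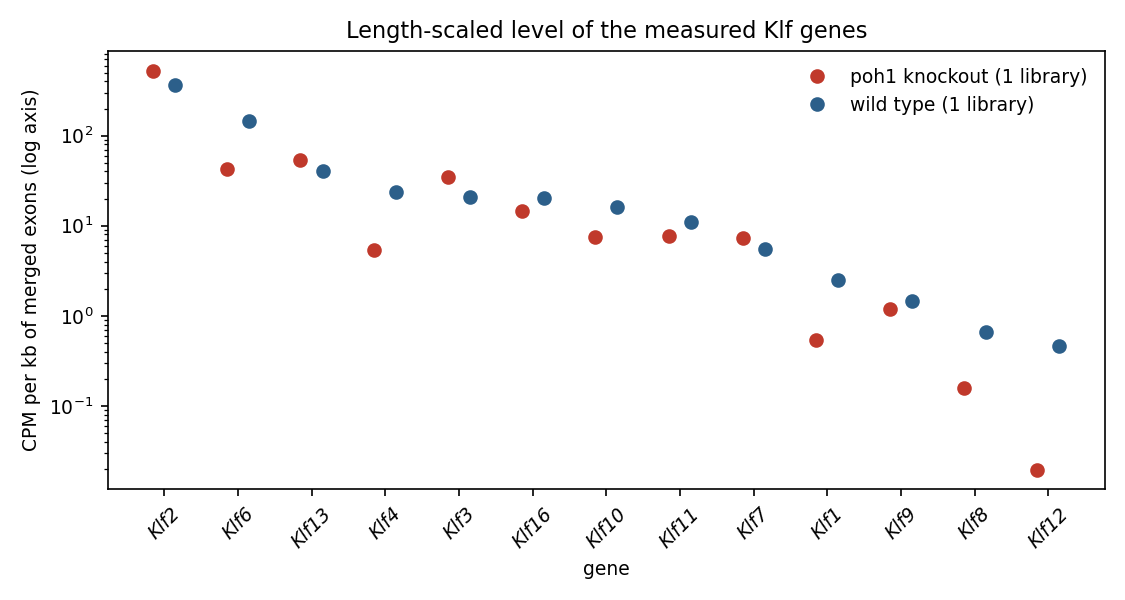
Level of the 13 measured Klf genes in CPM per kilobase of merged exons (log axis), in the knockout library (red, left) and the wild-type library (blue, right), ordered by the wild-type level. Klf2 is the most abundant in both libraries, and the gap between Klf2 and Klf6 is wider in the knockout library.

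The authors' deposited FPKM gave another order in places because of the gene length used. The length behind each FPKM value can be read from count and FPKM, and it was longer than the merged exons in 77.5% of 8932 genes with several annotated transcripts. For Satb1 it was 33133 bases, against 19027 bases of merged exons and 6243 bases in the longest transcript. For Bach2 it was 19525 bases, against 9940 bases of merged exons. For the single-transcript genes Klf2 and Foxo1, the lengths were equal at 1847 and 8665 bases, and for Klf13 it equalled the sum of its 4 transcripts, 8416 bases. In the deposited FPKM, Satb1 was the eighth of the 10 in the knockout library, and by merged exons it was the sixth. Klf6 exceeded Tcf7 in the wild-type library by FPKM, at 151.1 and 145.1 FPKM, but not per kb of merged exons. Ratios between the libraries are untouched by this, since each gene has the same length in both.

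Exons of Lef1 overlap those of the antisense gene Gm43352 over 13.7% of their length, and that gene had 534 counts in the knockout library and 242 in the wild-type library. Gm43352 was thus higher in the knockout library, as Lef1 was. A kit without strand cannot separate the reads, and the part of Gm43352 in the level of Lef1 was not tested. Exons of Foxo1 and Bach2 overlap antisense genes over 7.78% and 5.40% of their length, and these genes had at most 8 counts in either library. The overlap was 3.59% for Klf3 and 1.49% for Satb1. Tcf7, Foxo3, Klf2, Klf6 and Klf13 share no exon base with another annotated gene.

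The proximal promoters of the 5 called factors are shown because these are the genes that stand apart between the libraries, 4 upward and 1 downward. Each is the 250 bases before the RefSeq transcription start (build GRCm38.p6, the assembly of mm10), 5′ to 3′ on the strand of the gene, and for genes with several starts the one farthest upstream was taken. Capitals mark matches on either strand to 5 short motifs: CACCC of the KLF family, CTTTGA of TCF/LEF, GTAAACA of FOXO, TGANTCA of BACH and AP-1, and CCGGAAG of the ETS family. The windows are chr4:32417185-32417434 for Bach2 on the plus strand, chr17:51833291-51833540 for Satb1 on the minus strand, chr3:131110047-131110296 for Lef1 on the plus strand, chr5:64803271-64803520 for Klf3 on the plus strand and chr13:5861239-5861488 for Klf6 on the plus strand. The RefSeq start of Bach2 lies inside the span that GENCODE gives this gene, downstream of its first annotated start. The Klf3 window also runs past the GENCODE start of Klf3, at 64803388, and the Klf6 window past that of Klf6, at 5861482. The last bases of these windows, with some of the KLF matches of Klf3, therefore lie inside the GENCODE genes.
Bach2: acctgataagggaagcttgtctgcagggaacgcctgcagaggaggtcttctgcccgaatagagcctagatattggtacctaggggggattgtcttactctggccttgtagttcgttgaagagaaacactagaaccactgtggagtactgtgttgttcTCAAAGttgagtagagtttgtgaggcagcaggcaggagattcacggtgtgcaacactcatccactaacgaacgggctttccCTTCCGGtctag
Satb1: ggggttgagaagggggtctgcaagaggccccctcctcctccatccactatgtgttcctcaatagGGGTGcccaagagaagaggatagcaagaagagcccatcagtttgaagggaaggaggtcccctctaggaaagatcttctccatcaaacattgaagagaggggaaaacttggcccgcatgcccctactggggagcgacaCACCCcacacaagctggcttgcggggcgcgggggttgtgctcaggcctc
Lef1: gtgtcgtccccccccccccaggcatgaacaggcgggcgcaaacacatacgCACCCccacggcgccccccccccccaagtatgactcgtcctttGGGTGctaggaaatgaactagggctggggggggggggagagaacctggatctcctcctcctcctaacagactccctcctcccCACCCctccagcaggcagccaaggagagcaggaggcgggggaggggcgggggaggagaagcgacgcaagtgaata
Klf3: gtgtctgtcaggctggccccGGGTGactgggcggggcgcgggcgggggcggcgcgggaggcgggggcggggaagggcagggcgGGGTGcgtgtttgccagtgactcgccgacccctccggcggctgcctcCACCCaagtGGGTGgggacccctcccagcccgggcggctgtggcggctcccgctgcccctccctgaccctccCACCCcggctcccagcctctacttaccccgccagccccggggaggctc
Klf6: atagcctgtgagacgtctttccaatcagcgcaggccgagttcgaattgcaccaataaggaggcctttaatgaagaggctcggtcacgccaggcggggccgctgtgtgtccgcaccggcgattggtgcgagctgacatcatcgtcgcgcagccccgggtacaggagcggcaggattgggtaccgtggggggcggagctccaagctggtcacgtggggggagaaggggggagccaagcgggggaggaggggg

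The KLF motif occurred 5 times in the Klf3 window, 3 times in Lef1 and 2 times in Satb1, and in 0 of the Bach2 and Klf6 windows. Over all 10 factors, 6 windows held it, and 52.0% of 32851 RefSeq windows of the same length did. The TCF/LEF motif was found in 1 of 10, that of Bach2, against 13.8% of all windows, and the ETS motif in 1 of 10, again Bach2, against 6.91%. The FOXO and the BACH and AP-1 motifs were in 0 of 10, against 3.17% and 6.75% of all windows. The Bach2 window had a GC content of 50.4%, while the Klf3 window, at 78.4%, was the richest of the 10, beside a median of 52.4% over all windows. A match is a run of letters and not a binding site, and the absence of one says nothing of sites elsewhere.

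Of 13 genes of naive T cells, 4 were called higher and 1 lower, with a ratio above 1 in 11 and a median log2 ratio of 0.43. Treml2, a receptor gene of the TREM family, was at 407.7 CPM in the knockout and 142.8 CPM in the wild-type library, 2.85-fold higher (2.73 to 2.99). Ccr9, the receptor for the gut and thymus chemokine CCL25, was 2.80-fold higher (2.42 to 3.25), and Txk, a TEC-family kinase gene, was 2.51-fold higher (2.35 to 2.68). Exons of Ccr9 overlap other genes over 21.5% of their length. Cd55, the complement-decay gene, went against the list at 18.0 CPM in the knockout and 53.6 CPM in the wild-type library, 2.98-fold lower (2.60 to 3.43). Of 12 homing genes, 2 were called higher and 2 lower, beside 9.58% higher and 12.3% lower over all measured genes. Ccr7 was the highest of the homing genes, at 2.55-fold (2.46 to 2.64). Itga4, the alpha chain of a tissue-homing integrin, was 2.02-fold (1.95 to 2.09) and Gpr183, an oxysterol receptor gene, 2.13-fold lower (1.86 to 2.44). S1pr1, the KLF2-driven exit receptor, was named after its values were seen: it was at 477.3 CPM in the knockout and 402.0 CPM in the wild-type library, with a ratio of 1.19 (1.15 to 1.23), and was not called.

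Upstream of Klf2, the ERK5 and MEF2 pathway had 1 of 10 genes called higher and 0 lower. That gene was Mef2a, at 158.6 CPM in the knockout and 97.1 CPM in the wild-type library, 1.63-fold higher (1.53 to 1.74). Mef2d, its more abundant relative, had a ratio of 1.26 (1.22 to 1.31). Of 9 co-regulator and ligase genes that bind KLF proteins, 0 were called in either direction. The co-activator genes Crebbp and Ep300 had ratios of 1.31 (1.26 to 1.37) and 0.788 (0.758 to 0.819).

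Of 26 quiescence genes beyond the 10 factors, 2 were called higher and 3 lower, with a median log2 ratio of 0.01 that was -0.01 when the mitochondrial genes were left out of the library totals. Cdkn2d, an inhibitor of the G1 kinases, was at 87.1 CPM in the knockout and 45.4 CPM in the wild-type library, 1.92-fold higher (1.75 to 2.10). Foxj1, a forkhead gene of resting T cells, was 3.74-fold higher (1.71 to 9.03) on 27 counts in the knockout library and 9 in the wild-type library. Tob2, an anti-proliferative gene, was 2.24-fold (2.11 to 2.38), Zfp36l1, an mRNA-decay factor of quiescent lymphocytes, 2.00-fold (1.94 to 2.06) and 4632428N05Rik, the gene of the checkpoint receptor VISTA, 2.05-fold lower (1.93 to 2.17). Exons of Zfp36l1 overlap those of an antisense gene over 55.9% of their length, and a kit without strand cannot separate the reads. Slfn2, which guards T cell quiescence, was 1.56-fold higher with an interval that reached up to 1.62 and down to just under the threshold.

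Cell cycle genes, by contrast, were mostly lower, 9 of 14 with 1 higher and a median log2 ratio of -0.78. Ccnb1, the cyclin of mitotic entry, was 4.15-fold (3.36 to 5.17) and Ccna2 3.52-fold lower (3.23 to 3.84). Mki67, a proliferation marker, was at 344.4 CPM in the knockout and 1125 CPM in the wild-type library. The 1 called higher was Ccnd2, a D-type cyclin gene that FOXO factors are known to repress, at 911.8 CPM in the knockout and 499.5 CPM in the wild-type library, 1.83-fold higher (1.78 to 1.88). Ccnd3 had a ratio of 1.61 (1.46 to 1.78).

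Of 15 transcription factor genes of effector lymphocytes, 8 were called lower and 0 higher, with a median log2 ratio of -0.88. Ahr, the ligand-activated factor of tissue lymphocytes, was at 11.8 CPM in the knockout and 122.8 CPM in the wild-type library, 10.4-fold lower (8.89 to 12.2). Maf, a driver of interleukin-10, was 9.31-fold (8.57 to 10.1) and Nfil3 5.82-fold lower (4.98 to 6.85). Prdm1, the BLIMP1 gene that BACH2 represses, was named after its values were seen. It had 337 counts in the knockout library and 1398 in the wild-type library, 3.33-fold lower (2.96 to 3.76). A link of Prdm1 to the level of Bach2 was not tested.

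**Figure D4:**
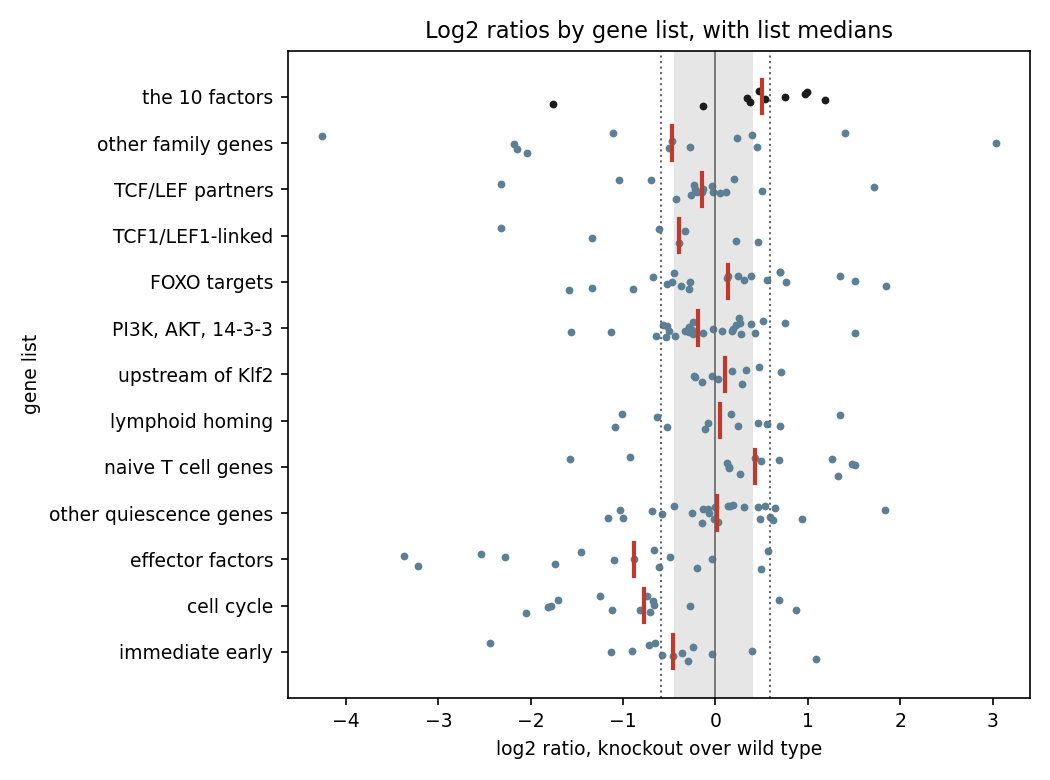
Log2 ratio of knockout over wild type for each measured gene (points), by gene list, with the list median as a red bar. The grey band spans the quartiles of all measured genes and the dotted lines mark 1.5-fold. The 10 factors (median 0.50) and the naive T cell genes (0.43) lie to the right, and effector factors (-0.88) and cell cycle genes (-0.78) to the left.

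Klf6 belongs with the early-response genes, which handling of cells also induces, so that group is given beside it. Of 13 immediate early genes, 4 were called lower and 1 higher, with a median log2 ratio of -0.46. Fosb was 5.45-fold (5.15 to 5.78) Fos 2.19-fold (2.11 to 2.27) and Nr4a1 1.87-fold lower (1.81 to 1.94), while Jun was at 946.2 CPM in the knockout and 445.0 CPM in the wild-type library, 2.13-fold higher (2.07 to 2.19). The part of handling in the Klf6 difference was not tested.

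Several of the 10 factors are also expressed by other spleen cells, and markers of those cells differed between the libraries. B cells express Bach2, Klf2 and Foxo1, and the 9 B cell markers summed to 39.9 CPM in the knockout library and 148.4 CPM in the wild-type library, with 8 of 9 called lower and none at 0. The part of B cells in the level of Bach2 was not tested. Immature thymocytes express Satb1, Tcf7 and Lef1, and the 4 thymocyte markers summed to 1.31 CPM in the knockout and 5.68 CPM in the wild-type library, with Rag2 at 0 counts in both libraries and Ptcra at 1 count in the knockout and 0 in the wild-type library. Both CD8 genes were called higher, summing to 47.4 CPM in the knockout and 18.8 CPM in the wild-type library. Cd8a, the more abundant in the knockout library, was at 26.1 CPM in the knockout and 7.40 CPM in the wild-type library. Naive CD8 T cells express most of the 10 factors, and the part of CD8 cells in the results was not tested. Of 7 monocyte markers, 2 were called higher and none lower, summing to 188.4 CPM in the knockout and 138.5 CPM in the wild-type library with none at 0. Monocytes express Klf4, and their part in its level was not tested. Of 8 erythroid markers, which summed to 129.4 CPM in the knockout and 114.2 CPM in the wild-type library, 7 were called lower, among them Klf1, and none was at 0. The exception was Gata1, called higher at 108.2 CPM in the knockout and 29.7 CPM in the wild-type library. The dendritic cell markers Xcr1 and Clec9a were at 0 in the knockout library, with 48 and 23 counts in the wild-type library. Neutrophil, dendritic cell, NK, endothelial and stromal marker lists each summed to at most 21.1 CPM in the knockout and 28.1 CPM in the wild-type library. The part of these cells in the results was not tested.

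**Figure D5:**
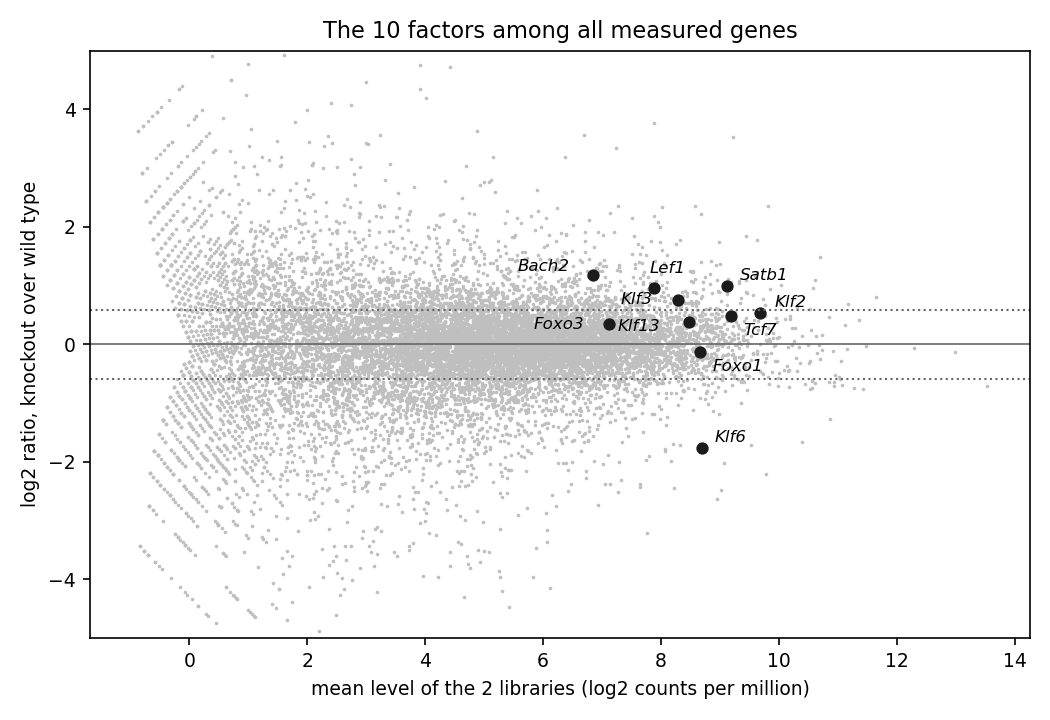
Log2 ratio of knockout over wild type against mean level (log2 CPM) for all measured genes (grey) and the 10 factors (black, named). The dotted lines mark 1.5-fold, and 27 genes above and 88 below the axis limits are not drawn. The 10 factors sit at the abundant end, where few genes lie as far below the lower line as Klf6.

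With 2 libraries, likeness of pattern reduces to closeness in level, and it was measured as the distance between genes in log2 CPM of both libraries. The 3 genes nearest to Bach2 were Tlr1, an innate receptor gene, at 158.9 CPM in the knockout and 72.4 CPM in the wild-type library, Zwint, a kinetochore gene, and Parp9, an interferon-inducible gene, at distances of 0.0449 to 0.0918. The 3 nearest to Klf6 were Top2a, Tnfrsf1b and Itgb1, at distances of 0.452 to 0.526. Klf6 thus had no neighbour as close in level as those of Bach2. This distance also depends on how many genes lie at a given level. By count in the wild-type library, Klf6 ranked 156 among measured genes and Bach2 3520.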

How the data were processed

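RNA of sorted Treg cells was sequenced in 1 library per genotype, prepared with the Illumina TruSeq RNA v2 kit, per the labels' protocols. That kit does not mark strand. TopHat, HTSeq and the mm10 build were used, per the submitters' processing notes. Neither the tool versions nor the gene annotation is given in the sources used here. The deposited tables hold a whole-number read count and an FPKM value (fragments scaled to gene length and library size) for every gene, per the file headers. The counts the authors deposited were used for all ratios, and their deposited FPKM only for ranks and implied gene lengths.

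The 10 factors and all 14 further gene lists and 11 marker lists were chosen with earlier results of these data known. Libraries were scaled with TMM factors (edgeR 4.0.16, R 4.3.3), and no model was fitted. Ratios carry exact 95% conditional-binomial (Clopper-Pearson) intervals, computed with scipy 1.17.1 in Python 3.11.15 and checked on simulated data. Library levels carry exact Poisson intervals. The reads carry no molecular identifiers and are not independent molecules, so the intervals hold for counting error only. log2 ratios had 0.5 counts added, scaled by library size. A gene counted as measured where it reached 1 CPM in either library, and a fold was not given for genes with at most 3 counts in both libraries. Lengths, positions and exon overlaps came from GENCODE M21 by gene name. The genes named are the 10 factors, the measured genes of their families, the 3 highest and 3 lowest of each list by the interval bound nearest 1, the most abundant gene of a marker list, and the 3 nearest genes to the factors of highest and lowest ratio. Exceptions are named as such, and some genes that this rule takes in are not reported here. Alternatives were other scalings, thresholds, level minimums and offsets.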

Additional observations from a re-analysis of the deposited data

How the results depend on the processing

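With 1 library per genotype, nothing here separates genotype from differences between mice or between preparations. No paired analysis was possible because each genotype has a single library. Under the 4 other scalings (plain totals, upper quartile, median of ratios and totals without mitochondrial genes), 4 factors were called higher and 1 lower, and the median log2 ratio of the 10 stayed between 0.49 and 0.54. The direction of a factor reversed in 0 of 50 recomputed values, and 1 of them moved beyond its counting interval, Klf2 to a log2 ratio of 0.57 with upper-quartile factors. These scalings and the offset shift log2 ratios by less than the distance of any factor from 0. A reversal could therefore not occur, and its absence is no check of direction. The threshold decides the count. At 2-fold, 1 factor was called higher, and at the laxer threshold of 0.32 on the log2 scale 7 were, with 1 lower at both. Over all measured genes, 4.34% were called higher and 6.63% lower at 2-fold, and 16.7% higher and 19.5% lower at the laxer one. The background at 50 CPM was chosen after seeing the data. In the other gene lists, 36 of 350 recomputed counts of called genes changed by more than 1.5-fold or to or from 0. Of 125 recomputed list medians 6 moved, all with no minimum level. Among the 7 T cell and Treg markers, 1 was called higher with totals without mitochondrial genes, and 0 were called lower with upper-quartile factors.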
